A study of Homo sapiens with 18 samples.

Results

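The 3 libraries of BxPC-3 cells treated for 4 h with HGF were compared directly with the 3 libraries treated for 4 h with MSP, 6 of the 18 libraries in the series. They were chosen by their column names, and every gene past a filter on low counts was tested. BxPC-3 is an established human pancreatic cancer cell line. The HGF group received 80 ng/ml of hepatocyte growth factor, the MSP group received 100 ng/ml of macrophage-stimulating protein, and both were harvested for total RNA at 4 h. The doses differed in mass and are compared as given. The vehicle group received PBS and was harvested at the same time, and HGF and MSP groups harvested at 1 h served for the comparison over time, with 3 libraries in each. The labels name no genetic change, all groups are the same single line, and the values describe that line alone. The labels speak of triplicates without naming separate cultures, and p-values therefore reflect the spread among these libraries alone, which may be technical.

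HGF and MSP are related secreted proteins, each made as an inactive single chain and cut by serine proteases into its active form. HGF binds the receptor tyrosine kinase MET, and MSP (gene MST1) binds the related receptor RON (gene MST1R). Both receptors are known to signal through adaptors such as GAB1 and GRB2 to the RAS and ERK pathway and the PI3K and AKT pathway, and MET is known for scattering, migration and growth of epithelial cells, including pancreatic ductal cancer cells. ERK signalling induces immediate-early transcription factors and its own inhibitors, while AKT keeps FOXO transcription factors out of the nucleus.

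Total counts at 4 h were 30556613 to 36307152 after HGF, 33799700 to 43382621 after MSP and 31258894 to 33937712 after vehicle. The groups differed in make-up as well as in single genes. Mitochondrially encoded genes took 6.11% to 6.22% of counts after HGF, 8.36% to 8.42% after MSP and 8.73% to 8.98% after vehicle. At an equal depth of 30556613 counts, 20333 to 20727 genes were detected after HGF and 22067 to 22263 after MSP. In both measures the 3 HGF libraries lay apart from the 3 MSP libraries (exact permutation test, two-sided p = 0.1, the smallest that 3 against 3 allows). The TMM factors, which set the scale of each library from the bulk of its genes, were 0.841 to 0.860 after HGF and 1.03 to 1.05 after MSP. Levels below are counts per 1000000 (CPM) on that scale, and differences, also where a value stands alone in brackets, are log2 HGF minus MSP unless stated. Scaling by library totals alone moved the median of all genes by -0.30. Genes that passed the test and whose direction depends on this scaling are named where they are described. Small values of genes that did not pass can change sign with it and are not always marked. In bulk RNA, fewer cells of a type and less RNA per cell cannot be told apart. Of 12 epithelial and ductal markers none was at 0, and their summed level was 13852 to 14499 CPM of library totals after HGF and 12502 to 13132 after MSP. Summed markers of other cells were low: 13.4 to 14.3 after HGF and 15.8 to 18.1 after MSP for 10 fibroblast and stellate cell markers (DES at 0 in all 9 libraries at 4 h), and 4.16 to 5.01 and 8.55 to 10.8 for 12 leukocyte and endothelial markers (HBA1 and KDR at 0 at 4 h). Their part in the results below was not tested.

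Transcript levels differed widely between the ligands at 4 h. Of 16794 genes tested, 5484 (32.7%) were higher after HGF than after MSP and 5670 (33.8%) were lower at an adjusted p below 0.05, which is 66.4% of all genes. At least 2-fold differences were seen for 1233 higher genes (7.34%) and 1934 lower genes (11.5%), and at least 4-fold differences for 224 (1.33%) and 413 (2.46%). The median absolute difference of the called genes was 0.64. Of the 5640 genes that were not called, 2621 had a 95% interval of the difference within 1.5-fold in either direction. The balance of directions rested on the scaling: by library totals 3320 genes were higher and 8975 lower, 27.0% of calls being higher instead of 49.2%. Of the 5484 higher genes, 3320 were also called higher by library totals, 1791 were not called and 373 were called lower, while all 5670 lower genes were also called lower. With so large a share of genes called, each group of genes is set against these shares and against the median difference over all genes, -0.075.

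Set beside the vehicle libraries, HGF differed at far more genes than MSP did. With HGF 5555 genes (33.1%) were above vehicle at 4 h and 5846 (34.8%) below it. With MSP 130 genes (0.774%) were above vehicle and 49 (0.292%) below it, and the median absolute difference of the called genes was 0.26. These comparisons share the HGF, MSP or vehicle libraries with the direct one and are given side by side only. The MSP total of 179 genes rested on single libraries. It became 16 or 83 when MSP replicate 2 or 3 was left out, and 32 or 20 when vehicle replicate 2 or 3 was left out.

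Transcripts of both receptors were higher after HGF with TMM scaling, MST1R more so than MET. MET stood at 976, 1011 and 1068 CPM in the 3 HGF libraries and 763, 794 and 799 in the 3 MSP libraries, with 795 to 828 after vehicle. The HGF libraries were all above the MSP libraries (0.37, SE 0.040, adjusted p = 1.25e-09), but by library totals the difference was 0.076 with adjusted p = 0.0596. MST1R, the MSP receptor, counted 126, 134 and 116 CPM after HGF and 73.6, 72.5 and 70.9 after MSP, with 61.8 to 70.1 after vehicle. That difference was larger than the spread (0.79, SE 0.063, adjusted p = 1.1e-11) and kept its direction by library totals (0.50). The HGF transcript itself reached at most 1 count in any library and was not tested. MST1, the MSP transcript, had 30 counts over the HGF libraries and 95 over the MSP libraries (-1.16, SE 0.45, adjusted p = 0.0265). Leaving out HGF replicate 2 or 3, or MSP replicate 2 or 3, ended that call, with adjusted p between 0.0525 and 0.175, and MST1 overlaps the tested genes APEH and RNF123.

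Of 14 tested genes for the ligands, their receptors, activating proteases, inhibitors and adaptors, 9 were higher and 5 lower after HGF (median 0.33), or 5 and 6 by library totals. CBL, the ubiquitin ligase that takes down activated receptors, counted 114, 113 and 117 CPM after HGF against 60.6, 62.5 and 62.2 after MSP (0.89). The adaptor SHC1 (0.80), the MET coreceptor CD44 (0.66), GRB2 (0.54) and the protease inhibitor SPINT2 (0.31) were also higher. On the lower side, the docking protein GAB1 counted 5.79, 7.15 and 6.85 CPM after HGF and 17.9, 17.1 and 18.3 after MSP (-1.43, SE 0.087, adjusted p = 3.06e-15). LRIG1, a membrane protein that restrains receptor kinases, was lower (-0.77), as was SPINT1 (-0.32). Matriptase, encoded by ST14 and an activator of pro-HGF, was slightly higher with TMM (0.16) and lower by library totals (-0.14). Adaptors were found on both sides of the comparison.

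The 12 largest higher values were taken among called genes averaging 1 CPM or more in the 6 libraries, with no overlap between the HGF and MSP libraries. They were led by AKAP12, a scaffold for protein kinases A and C. AKAP12 counted 977, 1136 and 1119 CPM after HGF and 17.97, 28.4 and 23.03 after MSP, with 10.7 to 13.6 after vehicle (5.55, SE 0.14, adjusted p = 5.17e-14). FOSL1, the AP-1 subunit FRA-1, counted 803, 790.1 and 816 CPM after HGF and 39.2, 44.2 and 43.9 after MSP, with 27.7 to 35.3 after vehicle (4.25, SE 0.087, adjusted p = 1.53e-18). For FOSL1 the MSP libraries lay above vehicle and far below HGF. SERPINB2, the plasminogen activator inhibitor PAI-2, counted 359, 376 and 381 CPM after HGF against 24.7, 26.3 and 26.3 after MSP (3.85). CD274, which encodes the checkpoint ligand PD-L1, counted 37.8, 31.6 and 38.8 CPM after HGF and 2.53, 2.35 and 1.83 after MSP (4.00, SE 0.12, adjusted p = 4.21e-22). Its paralog PDCD1LG2, encoding PD-L2, counted 7.96, 5.29 and 8.19 against 0.242, 0.287 and 0.297 (4.70). Both ligand genes were therefore low after MSP and well above that after HGF. PDCD1LG2 had only 32 counts over the 3 MSP libraries, so the size of its difference is less well known.

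Among the others on the higher side were the adhesion molecule CLMP, at 38.5, 35.5 and 36.2 CPM after HGF and 1.65, 1.66 and 1.83 after MSP (4.42), and TMEM158, at 52.2, 46.5 and 49.4 and 2.77, 3.56 and 2.72 (4.04). MIR100HG, a long non-coding host transcript of microRNA genes, counted 14.96, 15.6 and 14.5 CPM after HGF and 0.396, 0.459 and 0.728 after MSP (4.84). All 3 were low after MSP and high in each HGF library. NAV3, a microtubule-binding protein (5.19), CGB5, a chorionic gonadotropin beta subunit (4.90), RGS4, an inhibitor of G protein signalling (4.05), and the repressor HIC1 (4.03) had few counts after MSP: 15, 13, 37 and 52 over 3 libraries. Counting error limits how well the size of these 4 differences is known. The same holds for PDCD1LG2, with 32 counts over the MSP libraries, and MIR100HG, with 61. All of these genes averaged below 1 CPM after MSP and met the 1 CPM condition through the HGF libraries. CGB5 has near-identical neighbours, HIC1 overlaps the tested gene SMG6 and SERPINB2 overlaps SERPINB10, so reads may be shared between them.

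**Figure D1:**
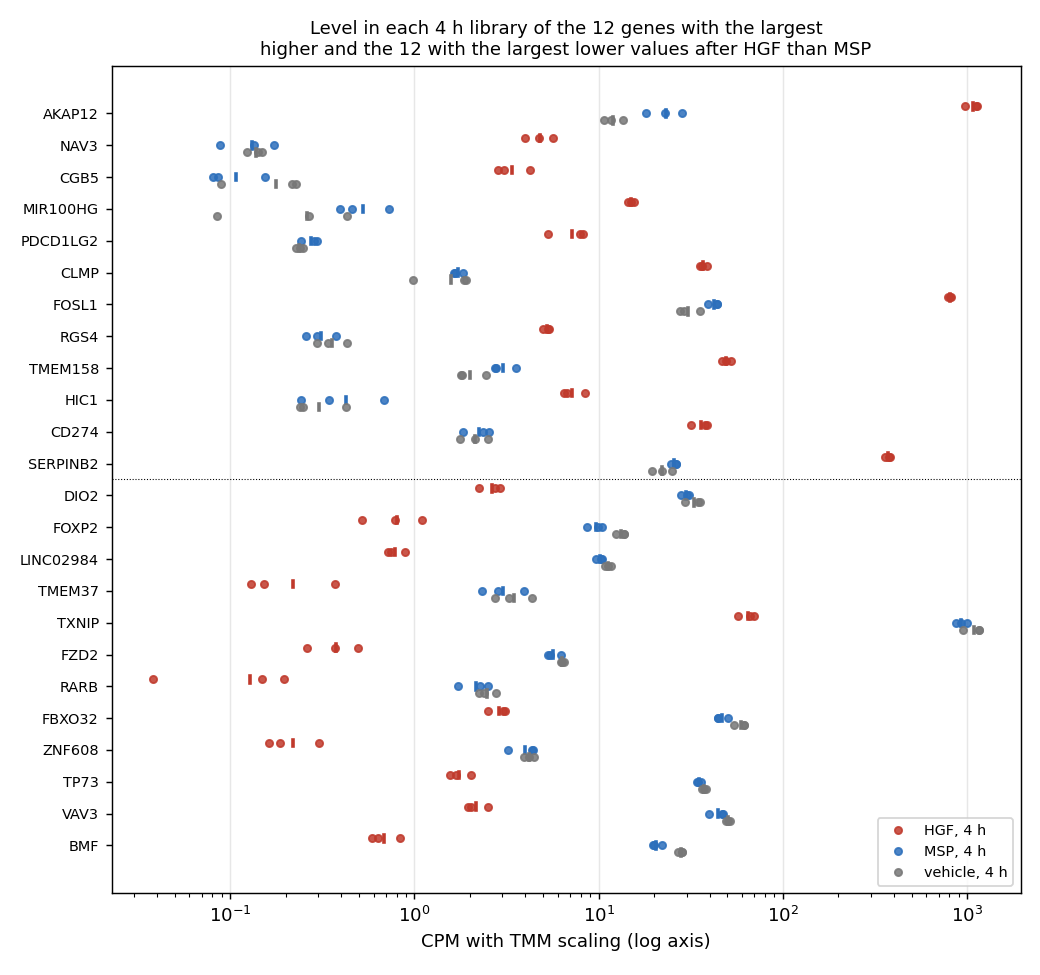
Level of each of the 24 genes with the largest differences in every 4 h library, in CPM with TMM scaling on a log axis, with 1 point per library and a short bar at the mean of each group of 3. The genes were chosen to have no overlap between HGF and MSP points. MSP points lie closer to the vehicle points than to the HGF points. For AKAP12 the HGF libraries range from 977 to 1136 CPM and the MSP libraries from 17.97 to 28.4.

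The largest lower values after HGF included regulators of cell death, metabolism and transcription. BMF, a BH3-only activator of apoptosis, counted 0.837, 0.633 and 0.587 CPM after HGF and 22.03, 20.1 and 19.7 after MSP, with 27.1 to 28.5 after vehicle (-4.91, SE 0.12, adjusted p = 4.55e-25). TXNIP, which binds thioredoxin and restrains glucose uptake, counted 66.1, 57.4 and 69.9 CPM after HGF and 995, 870.5 and 922 after MSP, with 951 to 1163 after vehicle (-3.85, SE 0.093, adjusted p = 3.19e-16). FBXO32, the ubiquitin ligase subunit atrogin-1, counted 3.08, 3.02 and 2.51 against 50.3, 44.6 and 44.6 (-4.03). The genes named here were chosen to have no overlap between the HGF and MSP libraries, so their separation is not a result in itself. VAV3, an exchange factor for small GTPases, counted 2.02, 2.49 and 1.96 CPM after HGF and 47.5, 39.7 and 46.5 after MSP (-4.37). TP73, encoding the transcription factor p73, counted 2.02, 1.68 and 1.57 and 36.1, 34.7 and 34.3 (-4.33). DIO2, a thyroid hormone deiodinase, counted 2.25, 2.75 and 2.90 and 31.01, 27.8 and 30.3 (-3.49). The transcription factor FOXP2 (-3.61) and the long non-coding RNA LINC02984 (-3.68) were also lower. ZNF608 (-4.18), the retinoic acid receptor RARB (-4.02), the Wnt receptor FZD2 (-3.92) and TMEM37 (-3.81) had only 18, 11, 31 and 18 counts over the 3 HGF libraries. TP73 overlaps TP73-AS1 and RARB overlaps TOP2B on the opposite strand, and the sources used here do not state whether counting used strand.

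Immediate-early transcription factors were mostly higher after HGF at 4 h: 20 of 25 were higher, 2 lower and 3 not called, with a median of 1.18 (18 and 4 by library totals). FOSL1 and its dimer partner JUN, at 203, 187 and 209.7 CPM after HGF and 56.95, 56.6 and 55.1 after MSP (1.83), were among them. FOS counted 22.8, 28.1 and 26.3 against 10.01, 9.72 and 11.6 (1.30) and FOSB 49.8, 44.1 and 51.3 against 18.1, 17.6 and 18.9 (1.41). The zinc finger factors divided by member. EGR1 counted 47.2, 58.1 and 50.5 CPM after HGF and 47.3, 52.3 and 57.6 after MSP, a difference of -0.012 with a 95% interval of -0.20 to 0.18, and -0.31 by library totals. EGR2 (0.49), EGR3 (1.97) and EGR4 (2.32) were higher. KLF2, KLF4 and KLF6 differed by 1.94, 1.32 and 1.31. ATF3, a stress-induced factor, was lower after HGF, at 1.87, 1.53 and 2.51 CPM against 2.88, 3.47 and 3.05 (-0.65, SE 0.14, adjusted p = 0.000227), as was JUND (-0.40). FOSL2 was slightly higher with TMM (0.15) and lower by library totals (-0.15).

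The list of ERK feedback inhibitors, which also holds ETS transcription factors such as ETV5, was mostly higher after HGF. Of its 22 genes 18 were higher and 3 lower, with a median of 1.39 (17 and 4 by library totals). DUSP2, a phosphatase of ERK, counted 9.90, 8.71 and 8.06 CPM after HGF and 0.792, 0.946 and 0.944 after MSP (3.32, SE 0.16, adjusted p = 6.97e-18). DUSP5 counted 610.4, 657 and 619 against 139, 152 and 139.8 (2.13), and DUSP6, the cytoplasmic ERK phosphatase, 386, 393 and 401 against 158, 164 and 158 (1.30). All libraries after HGF were above all libraries after MSP for these phosphatases, a condition under which DUSP2 was picked. SPRY4 counted 56.03, 64.1 and 58.96 CPM after HGF and 11.1, 12.2 and 12.2 after MSP (2.34), while its relative SPRY1 went the other way (-0.76). ERRFI1, an inhibitor of EGFR family kinases, differed by 2.26 and EPHA2, a receptor kinase, by 1.63. The ETS factors were lower: ETV5 counted 8.18, 9.12 and 8.87 CPM after HGF against 20.3, 22.5 and 21.4 after MSP (-1.29, SE 0.083, adjusted p = 1.07e-14), and ETV4 differed by -0.35. ETV5 overlaps the tested gene DGKG.

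All 6 tested EGF-family ligands were higher after HGF (median 2.42), also by library totals. AREG, encoding amphiregulin, counted 167, 166 and 174 CPM after HGF and 26.4, 28.01 and 26.7 after MSP, with 22.2 to 26.9 after vehicle (2.64, SE 0.064, adjusted p = 3.93e-24). EREG counted 122, 122 and 130.3 against 20.1, 20.1 and 20.04 (2.63), TGFA 336, 313 and 347 against 51.1, 54.7 and 53.3 (2.65) and HBEGF 114, 125 and 116 against 25.4, 26.5 and 24.7 (2.21). NRG1 (0.95) and BTC (0.73) differed less. All of these ligands activate receptors of the EGFR family.

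Genes known as FOXO targets were mostly lower after HGF: 17 of 21 were lower, 3 higher and 1 not called, with a median of -1.30 (18 and 3 by library totals). Beside TXNIP and FBXO32, DEPP1 counted 1.48, 1.49 and 1.76 CPM after HGF and 17.4, 14.5 and 15.2 after MSP (-3.31). PIK3IP1, an inhibitor of PI3K, counted 4.26, 6.03 and 4.93 against 48.7, 47.7 and 47.2 (-3.24, SE 0.084, adjusted p = 2.67e-24). ERBB3, the receptor for neuregulins, counted 31.6, 30.5 and 29.7 CPM after HGF and 109, 105 and 101 after MSP (-1.78). The sestrins SESN3 (-2.68) and SESN1 (-1.65), PDK4 (-2.66), BCL6 (-2.23) and the insulin receptor INSR (-1.47) were lower too. CCNG2 (1.14), GADD45A (0.92) and FOXO3 (0.66) were higher, and FOXO1 did not pass the test (0.025, 95% interval -0.082 to 0.13, -0.27 by library totals).

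The BCL2 family, which sets the balance of apoptosis, was divided, with 6 of 13 genes higher and 6 lower. Lower after HGF were the BH3-only genes BMF, HRK (-1.42), BBC3 (-1.35), BCL2L11 (-0.89) and PMAIP1 (-0.28), and the protective BCL2 itself (-0.60). BCL2L11, encoding BIM, counted 10.2, 13.1 and 12.95 CPM after HGF and 22.7, 21.5 and 23.2 after MSP. Higher were the protective MCL1, at 723, 794 and 757 CPM against 384, 391 and 380.3 (0.98), and BCL2L1 (1.00), with the death-promoting BAK1 (0.85), BIK (0.75), BAX (0.62) and BID (0.54). Outside this family, CDKN1A, the cell cycle inhibitor p21, counted 347, 341 and 344 CPM after HGF and 102, 105 and 96.4 after MSP (1.76, SE 0.049, adjusted p = 1.42e-23), and the nuclease gene AEN was higher (2.55). DDB2 (-1.02) and XPC (-0.93), which recognise damaged DNA for excision repair, were lower.

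Genes for proteolysis and for attachment to the matrix were higher after HGF. Of 20 plasminogen activators, matrix proteases and their inhibitors 17 were higher and 2 lower (median 1.00; 15 and 2 by library totals). PLAUR, the urokinase receptor, counted 88.7, 87.1 and 86.7 CPM after HGF and 18.1, 19.3 and 16.3 after MSP, with 15.4 to 17.2 after vehicle (2.29, SE 0.062, adjusted p = 5.62e-24). PLAU, urokinase itself, counted 466, 457 and 465 against 196, 192 and 181 (1.29). Urokinase, its receptor and the inhibitor SERPINB2 were thus higher together. Among matrix metalloproteinases, the collagenase MMP1 counted 288, 305 and 294 CPM after HGF against 43.7, 37.99 and 42.2 after MSP (2.84), and MMP9 (1.52) and MMP10 (1.45) were higher too. The stromelysin MMP3 counted 1.33, 1.34 and 1.27 CPM after HGF and 0.0440, 0.0573 and 0.135 after MSP, where it lay near the floor of 3 counts. The inhibitor TIMP1 was higher (0.74) and TIMP2 lower (-0.24).

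Of 11 integrin subunits, which bind cells to matrix, 8 were higher and 1 lower (median 0.61; 7 and 3 by library totals). ITGA5, the fibronectin receptor subunit, counted 165, 157 and 161 CPM after HGF and 43.3, 45.8 and 44.3 after MSP (1.86, SE 0.051, adjusted p = 9.94e-24), and ITGA2, the collagen receptor subunit, 937, 997 and 1029 against 335, 364 and 361 (1.48). ITGB8 was the exception, at 52.7, 50.9 and 55.1 CPM after HGF and 138, 129 and 139.7 after MSP (-1.36), with an antisense gene, ITGB8-AS1, that was also tested. Among laminins and hemidesmosome genes 6 of 10 were higher and 2 lower, or 5 and 5 by library totals. The laminin chain LAMA3 counted 611, 699 and 684 CPM after HGF and 284, 305 and 303 after MSP (1.16), with LAMB3 at 0.46. DST (-1.04) and LAMA5 (-0.82) were lower.

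Actin and adhesion genes, many of them known targets of SRF or YAP, were mostly higher: 18 of 21 were higher and the other 3 did not pass the test (median 1.03; 16 higher and 3 lower by library totals). TAGLN, an actin-binding protein, counted 55.6, 48.4 and 55.99 CPM after HGF and 4.77, 4.39 and 5.12 after MSP, with 2.16 to 3.99 after vehicle (3.48, SE 0.12, adjusted p = 4.63e-17). MYL9, a myosin light chain, differed by 2.15, the focal adhesion protein ZYX by 1.79, CCN2 by 1.89 and CCN1 by 1.35. Cytoskeletal actin itself differed, with ACTB at 10586, 10694 and 10643 CPM after HGF against 3846, 4196 and 3908 after MSP (1.42). ACTB is often used to scale other transcripts. Of 14 housekeeping genes 11 were higher and 1 lower with TMM, or 6 and 6 by library totals. TAGLN overlaps the tested gene PCSK7.

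Epithelial junction genes showed no common direction. With TMM 10 of 22 were higher and 7 lower (median 0.029), and by library totals 5 and 14 (median -0.27). The tight junction gene CLDN1 counted 186, 170.0 and 197 CPM after HGF and 901, 805 and 859 after MSP (-2.21, SE 0.074, adjusted p = 7.51e-16), and CLDN23 was lower (-1.24). The desmosomal plakophilin PKP2 was higher, at 150.2, 140.2 and 156 CPM against 56.9, 58.4 and 60.04 (1.35), as was CTNNB1, beta-catenin (0.72). CDH1, E-cadherin, was higher by 0.42 with TMM and 0.12 by library totals. DSP and EPCAM did not pass the test, with 95% intervals of -0.081 to 0.13 and -0.078 to 0.14, but stood at -0.27 and -0.27 by library totals.

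Mesenchymal genes and regulators of epithelial-mesenchymal transition were mixed, with 7 of 15 higher and 4 lower (2 and 5 by library totals). VIM (0.50), FN1 (0.40) and the repressor SNAI2 (0.76) were higher. OVOL2, a factor that maintains the epithelial state, counted 3.39, 4.69 and 2.81 CPM after HGF and 9.39, 10.1 and 9.44 after MSP (-1.42), and GRHL2 was lower (-0.47). SNAI1 did not pass the test (0.61, 95% interval -0.48 to 1.71), and N-cadherin, CDH2, differed by -0.085 (95% interval -0.52 to 0.35). COL1A1, a collagen chain, was higher with TMM (0.28) and stood at -0.019 by library totals, with adjusted p = 0.862, and without MSP replicate 2 its adjusted p was 0.0531.

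Secreted signals were mostly higher after HGF, though not all chemokines. Of 17 cytokines, chemokines and their feedback genes 10 were higher and 2 lower (median 1.20; 10 and 3 by library totals). IL11, of the IL6 family, counted 9.94, 8.34 and 8.06 CPM after HGF and 0.770, 0.774 and 0.836 after MSP (3.46, SE 0.18, adjusted p = 4.71e-17). IL1B (3.09), IL1A (2.61), the neutrophil chemokine CXCL8 (1.94), CCL20 (2.57), CSF2 (2.54) and LIF, at 21.4, 22.7 and 21.1 CPM against 4.77, 4.67 and 4.15 (2.26), were higher. TNFAIP3, an inhibitor of NF-kB, counted 161, 151 and 159 against 26.6, 25.6 and 24.5 (2.62). CXCL1, CXCL2, CXCL3 and CXCL5 did not pass the test, at 0.089, 0.49, 0.22 and 0.41. The CXC chemokines of this list thus did not differ as a block.

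Of 16 angiogenic factors and endothelins 12 were higher and 3 lower (median 1.44; 11 and 4 by library totals). VEGFA counted 491, 508 and 475 CPM after HGF and 168, 179 and 165 after MSP (1.52, SE 0.050, adjusted p = 6.61e-22). PDGFB (2.97), EDN1 (2.74), PGF (2.36), ANGPTL4 (2.55) and the coreceptors NRP1 (1.54) and NRP2 (1.80) were higher. VEGFB (-0.33), ADM (-0.51) and SEMA3C (-0.60) were lower. Axon guidance genes were divided, with 10 of 23 higher and 9 lower (9 and 12 by library totals). SEMA7A counted 68.7, 57.7 and 59.6 CPM after HGF and 6.86, 7.43 and 6.88 after MSP (3.14), and EFNB2 differed by 1.81. NTN4 (-1.05), EPHB3 (-1.07) and EFNA1 (-0.90) were lower.

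Of 14 immune checkpoint ligands and HLA class I genes 7 were higher and 3 lower (5 and 8 by library totals). Apart from CD274 and PDCD1LG2, NLRC5, an activator of HLA genes (1.19), the ectonucleotidase NT5E (1.04) and CD276 (0.53) were higher, and VTCN1, encoding B7-H4, was lower (-1.45). HLA-C did not pass the test (0.059), HLA-B was higher by 0.32, and by library totals these stood at -0.24 and 0.018.

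Interferon response genes leaned the other way: 1 of 22 was higher and 13 lower (median -0.21; 1 and 19 by library totals), and without MSP replicate 2 the lower count was 8. IFIT2 counted 5.67, 6.07 and 6.13 CPM after HGF and 25.4, 26.6 and 27.1 after MSP (-2.14, SE 0.072, adjusted p = 1.45e-21). STAT2, a subunit of the interferon-activated factor ISGF3, counted 20.8, 23.2 and 19.97 against 77.9, 74.01 and 80.4 (-1.86), and IRF1 25.3, 29.4 and 24.5 against 58.9, 59.3 and 54.2 (-1.12). IFIT1 (-1.51), IFIT3 (-1.67), IFIH1 (-1.30) and MX1 (-1.12) were lower. ISG15 (-0.038) and IFI6 (-0.072) did not pass the test, and ISG20 was higher (0.69). IFIT2 overlaps the tested gene LIPA.

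Cell cycle genes were mostly lower after HGF. Of 25 genes of the G1 to S transition and of replication, 17 were lower and 6 higher (median -0.49; 18 and 4 by library totals). E2F1 counted 6.32, 6.07 and 6.23 CPM after HGF and 19.2, 16.7 and 17.9 after MSP (-1.53, SE 0.090, adjusted p = 1.19e-15), and E2F2 differed by -2.20. The replication helicase subunit MCM5 counted 33.3, 38.9 and 33.4 against 78.7, 81.8 and 76.7 (-1.17), with MCM2 at -1.45 and MCM3 at -0.87. The inhibitors CDKN2C (-2.42) and CDKN1B (-0.98) were lower as well. The D-type cyclins and their kinase were higher: CCND1 counted 568, 613 and 593 CPM after HGF against 384, 401 and 394 after MSP (0.59), CCND2 differed by 0.90 and CDK6 by 1.25. Of 17 mitosis genes 13 were lower and 3 higher, and 15 were lower by library totals. The centromere protein CENPF counted 83.1, 99.8 and 96.4 CPM after HGF and 179, 196 and 197 after MSP (-1.03), and KIF20A differed by -1.17. CDC20, UBE2C and CCNB1 were higher with TMM (0.35, 0.32 and 0.15) and stood at 0.056, 0.020 and -0.15 by library totals.

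Genes of ribosome biogenesis and polyamine metabolism were all higher after HGF, 22 of 22 (median 1.25), with 21 higher and SAT1 lower (-0.15) by library totals. ODC1, the first enzyme of polyamine synthesis, counted 229.6, 241 and 241 CPM after HGF and 46.4, 54.7 and 50.8 after MSP, with 41.3 to 44.3 after vehicle (2.23, SE 0.059, adjusted p = 1.56e-23). NOP56, of the box C/D ribonucleoproteins, counted 556, 582 and 545 against 193, 207 and 188 (1.52), and nucleolin, NCL, 1678, 1697 and 1732 against 844, 931 and 871 (0.95). RRP9 (1.86), RRP12 (1.67), BOP1 (1.61) and POLR1B (1.49) had differences of similar size. The spread between libraries was small beside each of these.

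Of 16 genes of glycolysis and glucose uptake 15 were higher and PFKL did not pass the test at -0.048 (median 0.71; 13 higher and 1 lower by library totals). HK2, hexokinase 2, counted 277, 309.9 and 296 CPM after HGF and 57.4, 65.1 and 61.6 after MSP (2.26, SE 0.054, adjusted p = 3.11e-25), and PFKFB3, an activator of phosphofructokinase, 104, 119.7 and 111 against 29.1, 29.8 and 31.6 (1.89). LDHA (1.25), the lactate exporter SLC16A3 (1.29) and the glucose transporter SLC2A1 (0.82) were higher. Among cholesterol and fatty acid synthesis genes 17 of 20 were higher and 2 lower (median 0.68; 12 and 4 by library totals). HMGCS1 counted 1381, 1544 and 1503 CPM after HGF and 375, 462 and 437 after MSP (1.80), and the enzymes SQLE (1.48) and IDI1 (1.28) were higher. SREBF1, encoding a regulator of these genes, was lower (-0.61).

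Amino acid transporters and ATF4 targets were divided, with 13 of 20 higher and 7 lower (9 and 9 by library totals). The leucine transporter SLC7A5 counted 676, 726 and 719 CPM after HGF and 246, 287 and 268 after MSP (1.40). SLC1A4 (-0.97), DDIT3 (-0.39) and PSAT1 (-0.32) were lower. All 13 mitochondrially encoded genes of the list were lower after HGF (median -0.21). Of all 23 tested genes with an MT- symbol, 14 were lower, 0 higher and 9 not called (median -0.19; 17 lower by library totals). The share of counts given above covers every MT- gene.

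Transcription factors of the pancreatic and foregut lineage divided by member, with 6 of 12 higher and 3 lower (3 and 4 by library totals). SOX9, a ductal and progenitor factor, counted 50.1, 54.9 and 56.4 CPM after HGF and 8.25, 8.77 and 9.14 after MSP, with 7.05 to 8.94 after vehicle (2.63, SE 0.084, adjusted p = 3.33e-22). FOXA2 was higher (1.16), while its relative FOXA1 counted 14.1, 13.7 and 13.8 CPM after HGF against 38.1, 34.6 and 38.5 after MSP (-1.42). ELF3, an epithelial ETS factor, was lower at 3.46, 3.02 and 3.69 CPM against 16.2, 16.5 and 15.3 (-2.24, SE 0.094, adjusted p = 2.88e-19). ELF3 overlaps its antisense gene ELF3-AS1. Of 20 nuclear receptors 9 were higher and 10 lower (7 and 11 by library totals). RARA counted 52.7, 48.1 and 48.7 CPM after HGF and 23.2, 22.4 and 25.5 after MSP (1.07), the opposite direction to RARB, and NR2F2 was lower (-1.39). Among TGF-beta and BMP genes 8 of 18 were higher and 9 lower (6 and 10 by library totals). INHBA, the activin subunit, counted 103, 111 and 112 CPM after HGF and 21.6, 20.4 and 21.4 after MSP (2.36), while TGFB3 (-1.82), BMP7 (-1.37), TGFB2 (-1.23) and SMAD6 (-1.66) were lower. Of 13 Notch genes 7 were higher and 5 lower with TMM, and 2 and 9 by library totals, with DLL1 at -1.27 and JAG2 at -0.82.

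**Figure D2:**
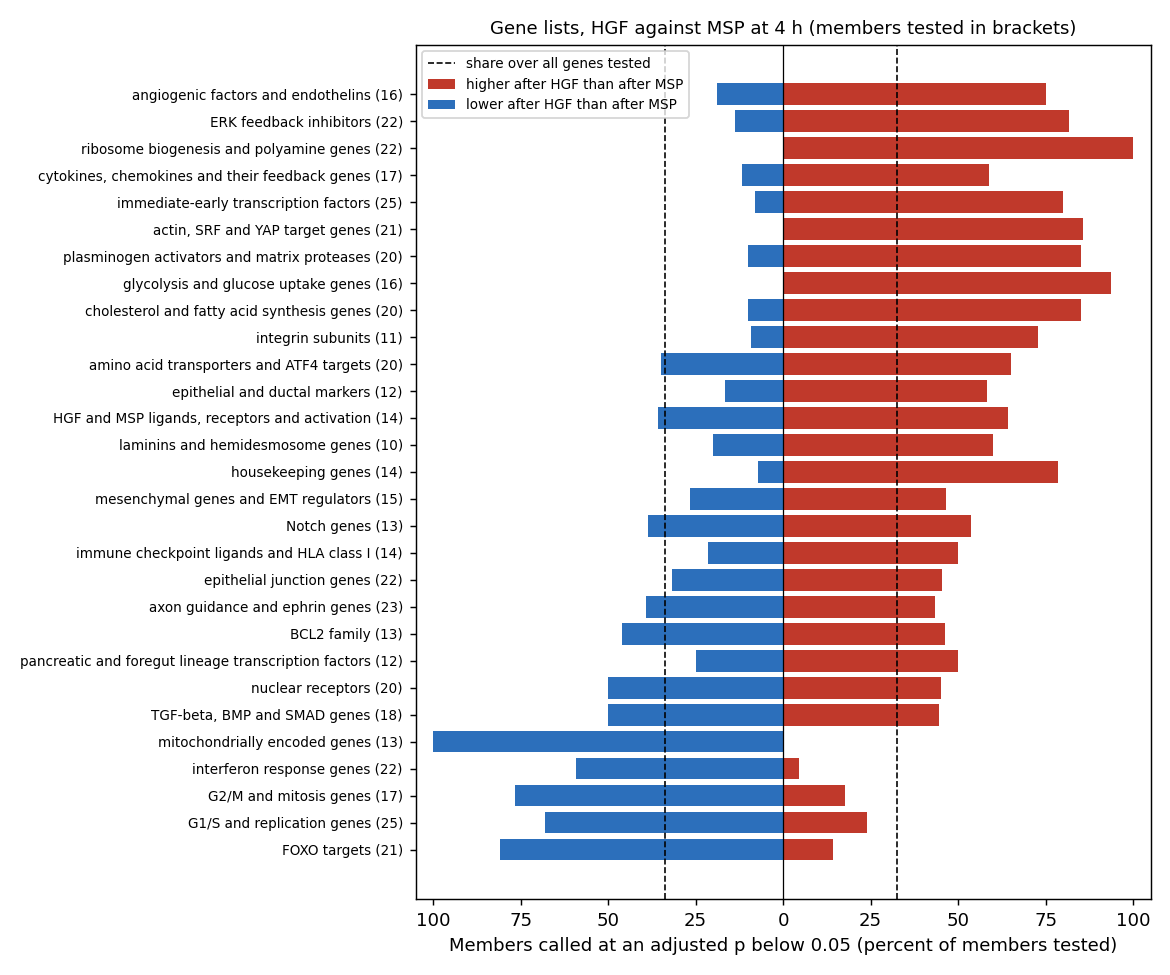
Share of each list's tested members that was higher (right) or lower (left) after HGF than after MSP at 4 h, in percent, at an adjusted p below 0.05 with TMM scaling. The lists shown have at least 10 tested members and are ordered by their median difference, the number of members tested is in brackets, and the dashed lines mark the shares over all genes tested, 32.7% higher and 33.8% lower. All 22 ribosome biogenesis and polyamine genes were higher, and 17 of 21 FOXO targets were lower.

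Promoter letters were set beside the expression differences, since AP-1 factors such as FOSL1 and known FOXO targets stood at opposite ends. RefSeq promoters on GRCh38.p14 were matched by symbol to 11460 tested genes and to 58 of the 87 genes named by rule, and the 250 bases before each start were searched on both strands. The AP-1 letters TGANTCA, which read the same on both strands and neither hold nor are held in the FOXO letters, were found in 4.5% of tested genes and 6.6% of all 27305 promoters of that length. They were found in 8.07% of genes at least 2-fold higher after HGF, in 15.8% (22 of 139) of those at least 4-fold higher and in 7.76% (19 of 245) of those at least 4-fold lower. The FOXO letters GTAAACA were found in 2.16% of tested genes and 2.98% of all promoters. Their share was 2.16% (3 of 139) among genes at least 4-fold higher, 3.58% among those at least 2-fold lower and 6.53% (16 of 245) among those at least 4-fold lower. The ETS letters CCGGAAGT were found in 6.66% of tested genes, in 9.11% of called higher and 5.02% of called lower genes, but in 1.44% of those at least 4-fold higher. Letters for EGR (GCGTGGGCG), the E-box (CACGTG), ATF and CREB (TGACGTCA), and TEAD (GGAATG) were found in 0.719%, 5.76%, 2.16% and 11.5% of genes at least 4-fold higher, against 1.15%, 8.46%, 2.88% and 9.69% of tested genes. An NF-kB motif was found in 3.6% (5 of 139) of genes at least 4-fold higher, against 1.95% of tested genes. These shares are descriptions of letters in a window, and no binding was measured.

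**Figure D3:**
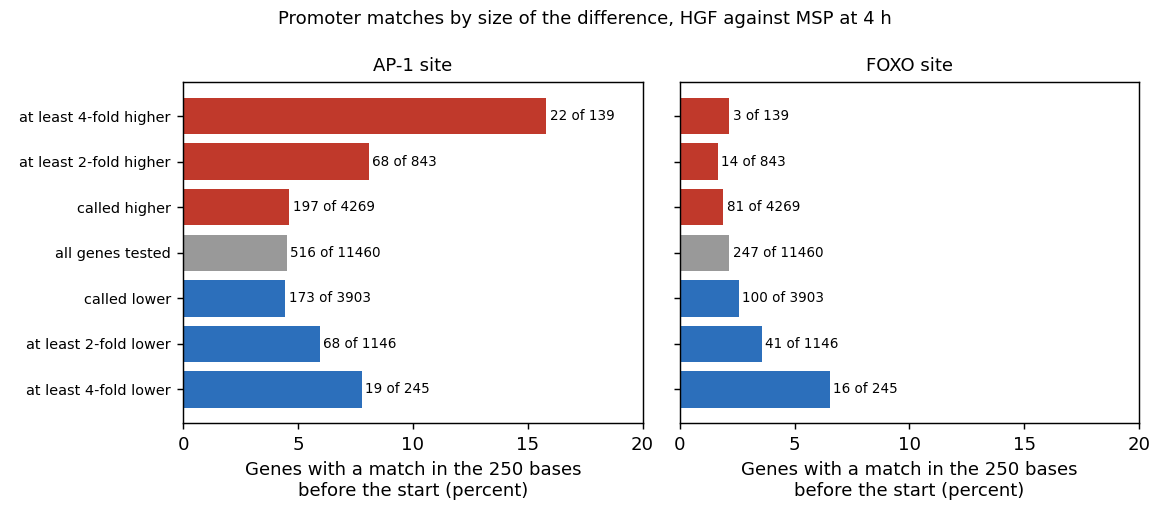
Share of genes, in percent, with the AP-1 letters (left) or the FOXO letters (right) in the 250 bases before the start, by direction and size of the difference between HGF and MSP at 4 h, with the number of genes beside each bar. The AP-1 share is highest among genes at least 4-fold higher after HGF (22 of 139), and the FOXO share among genes at least 4-fold lower (16 of 245).

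Promoters are shown for 4 of the 22 genes that were at least 4-fold higher and hold the AP-1 letters. They are examples picked after the values were seen, so that the match can be seen beside the size of the difference. F3, encoding tissue factor, counted 3917, 3709.9 and 4046 CPM after HGF and 569.9, 593 and 583 after MSP (2.74), and the other 3 are described above. Each sequence runs from 250 bases to 1 base before the start on the gene's strand, with matches in capitals and the rest in lower case. The positions are chr18:63887455-63887704, plus strand for SERPINB2, chr19:55370464-55370713, minus strand for IL11, chr1:94541760-94542009, minus strand for F3 and chr19:43670170-43670419, minus strand for PLAUR. The match farthest from the start begins 102, 96, 223 and 186 bases before it.
SERPINB2: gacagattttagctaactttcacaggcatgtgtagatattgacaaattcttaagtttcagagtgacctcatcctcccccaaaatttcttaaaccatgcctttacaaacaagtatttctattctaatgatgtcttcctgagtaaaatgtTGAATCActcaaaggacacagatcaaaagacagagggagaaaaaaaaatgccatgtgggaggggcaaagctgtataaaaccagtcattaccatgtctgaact
IL11: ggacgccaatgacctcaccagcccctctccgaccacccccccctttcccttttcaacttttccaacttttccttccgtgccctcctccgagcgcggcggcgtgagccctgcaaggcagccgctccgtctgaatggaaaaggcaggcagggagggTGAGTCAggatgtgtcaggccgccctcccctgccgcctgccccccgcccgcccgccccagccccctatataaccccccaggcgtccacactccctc
F3: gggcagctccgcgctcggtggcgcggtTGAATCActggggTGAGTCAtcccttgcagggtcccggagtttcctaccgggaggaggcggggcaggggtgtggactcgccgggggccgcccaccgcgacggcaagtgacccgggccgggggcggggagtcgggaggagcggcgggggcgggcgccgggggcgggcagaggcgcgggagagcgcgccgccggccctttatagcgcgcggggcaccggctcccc
PLAUR: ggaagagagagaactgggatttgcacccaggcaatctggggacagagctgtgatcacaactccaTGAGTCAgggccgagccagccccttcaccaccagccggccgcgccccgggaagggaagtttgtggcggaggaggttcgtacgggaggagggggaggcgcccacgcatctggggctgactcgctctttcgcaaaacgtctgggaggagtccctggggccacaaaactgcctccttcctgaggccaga

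Promoters of 3 of the 16 genes at least 4-fold lower after HGF that hold the FOXO letters are shown in the same way, also as examples. HBP1, a transcriptional repressor, counted 17.2, 15.6 and 17.3 CPM after HGF and 85.5, 79.9 and 82.2 after MSP (-2.31), and TXNIP and DEPP1 are described above. The positions are chr1:145996580-145996829, minus strand for TXNIP, chr10:44978810-44979059, minus strand for DEPP1 and chr7:107168753-107169002, plus strand for HBP1, and the matches begin 124, 180 and 173 bases before the start.
TXNIP: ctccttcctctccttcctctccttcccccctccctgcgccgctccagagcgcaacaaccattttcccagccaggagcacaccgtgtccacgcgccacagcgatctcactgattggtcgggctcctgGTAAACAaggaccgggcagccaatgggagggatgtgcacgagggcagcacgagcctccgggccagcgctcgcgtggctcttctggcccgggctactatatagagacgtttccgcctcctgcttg
DEPP1: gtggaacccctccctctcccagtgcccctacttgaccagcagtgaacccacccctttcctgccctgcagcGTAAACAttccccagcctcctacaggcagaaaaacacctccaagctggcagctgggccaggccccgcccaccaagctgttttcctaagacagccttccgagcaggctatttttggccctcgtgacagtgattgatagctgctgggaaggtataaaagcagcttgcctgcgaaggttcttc
HBP1: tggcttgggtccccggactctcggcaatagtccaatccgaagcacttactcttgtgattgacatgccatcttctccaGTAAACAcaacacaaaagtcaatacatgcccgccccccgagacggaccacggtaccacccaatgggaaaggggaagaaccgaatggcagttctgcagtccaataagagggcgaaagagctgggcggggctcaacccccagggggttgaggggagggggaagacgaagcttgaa

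The difference between the ligands was narrower at 1 h. After 1 h, 1911 genes (11.4%) were higher with HGF than with MSP and 1068 (6.36%) were lower, in libraries that the 4 h comparison does not share. By library totals the balance turned, with 1296 higher and 3112 lower, and the overlaps that follow are with TMM scaling. Of the 1911, 1536 were also higher at 4 h, which is 80.4% of the 1 h list and 28.0% of the 4 h list, and 152 (7.95%) were lower at 4 h. Of the 1068 lower genes 690 were also lower at 4 h, 64.6% of the 1 h list and 12.2% of the 4 h list, and 134 (12.5%) were higher. The test of the difference between the times called 8580 genes (51.1%), 4457 (26.5%) in the direction of a higher HGF minus MSP value at 4 h and 4123 (24.6%) in the other direction (2932 and 6459 by library totals). Among the 5484 genes higher at 4 h it called 4229 upward and 96 downward, and among the 5670 lower genes 3788 downward and 28 upward. The 4 h difference that sorted these genes is itself part of the change tested. This lean was therefore partly set by the sorting and is given as a description only.

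Genes that separated the ligands late included NAV3 and CLMP. CLMP counted 0.923, 0.897 and 1.04 CPM after HGF and 0.841, 0.758 and 0.508 after MSP at 1 h, a difference of 0.44 against 4.42 at 4 h (change between times 3.98, SE 0.31, adjusted p = 3.19e-12). JCAD, a junction-associated protein (-0.50 at 1 h, 2.96 at 4 h), GPAT3, a triglyceride synthesis enzyme (0.27 and 3.70), CHST11, a chondroitin sulfotransferase (0.13 and 3.36), and ZBED2 (-0.27 and 2.94) followed the same order. On the lower side BMF stood at -0.50 at 1 h and -4.91 at 4 h, VAV3 at -0.44 and -4.37, and TXNIP at -0.28 and -3.85. All 3 were far closer between the ligands at 1 h.

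Other genes separated the ligands early and less at 4 h. EGR2 counted 239, 262 and 251 CPM after HGF and 9.50, 11.9 and 10.8 after MSP at 1 h (4.55), and 0.952, 1.53 and 1.50 and 1.01, 0.803 and 1.02 at 4 h (0.49; change -4.07, SE 0.22, adjusted p = 1.06e-15). ATF3 changed sign, from 1.99 at 1 h to -0.65 at 4 h, as did ELF3, from 0.90 to -2.24. DUSP2 differed at both times, by 3.88 and 3.32. FOSL1, AKAP12 and CD274 were already higher at 1 h (2.76, 3.61 and 2.61) and further apart at 4 h.

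**Figure D4:**
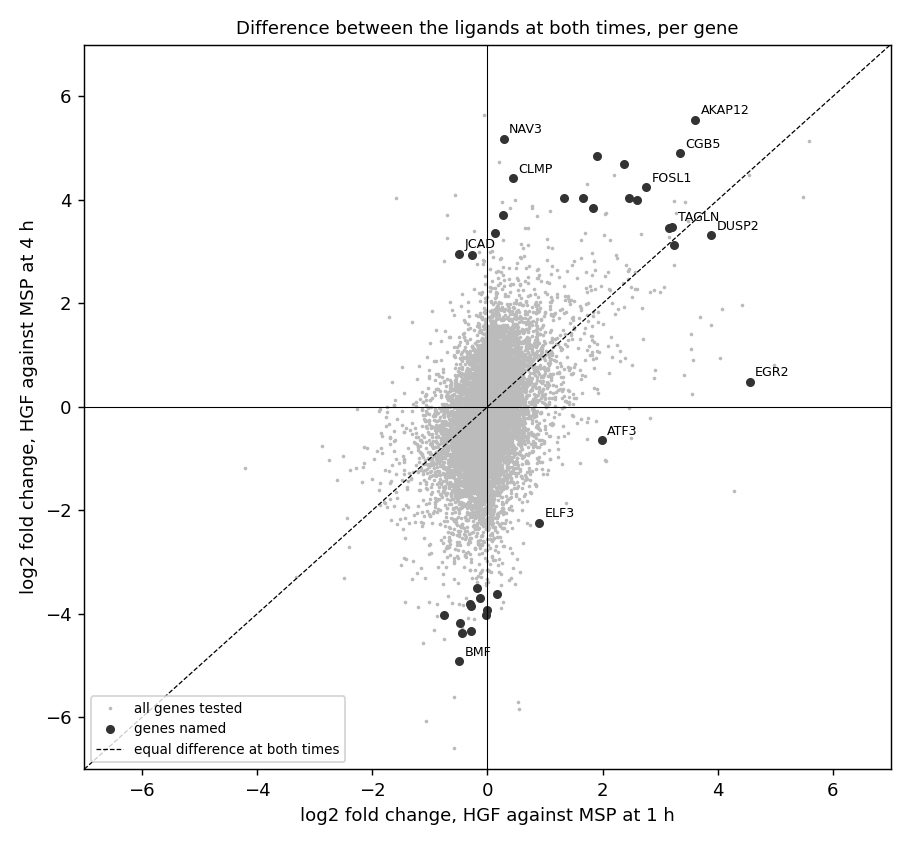
Log2 fold change of HGF against MSP at 1 h (horizontal) and at 4 h (vertical) for each of the 16794 genes tested, with the genes of the largest differences as dark points. Points on the dashed line have equal differences at both times. NAV3, CLMP and BMF lie near 0 on the 1 h axis and far from 0 on the 4 h axis, EGR2 shows the reverse, and ATF3 and ELF3 are positive at 1 h and negative at 4 h.

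Beside vehicle, 8 of the genes described above stood as follows in the HGF and MSP tests, which share the vehicle libraries. AKAP12 was 6.50 above vehicle with HGF and 0.94 with MSP (adjusted p = 0.011 for MSP), FOSL1 4.71 and 0.47 (adjusted p = 0.0139) and TAGLN, the actin-binding protein, 4.18 and 0.70 (adjusted p = 0.0372). BMF stood at -5.35 with HGF and -0.44 with MSP (adjusted p = 0.00076). These 4 genes passed the test with either ligand, in the same direction, with all libraries in the fit. The total of MSP calls rested on single libraries, and the MSP calls of these 4 genes without single libraries are not given here. TXNIP (-4.08 and -0.23), CD274 (4.07 and 0.072), AREG (2.82 and 0.17) and MST1R (0.96 and 0.16) passed it with HGF, and not with MSP (adjusted p = 0.23, 0.923, 0.271 and 0.267).

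Few genes set MSP apart from both HGF and vehicle at 4 h. Among genes with a symbol and a mean of 1 CPM or more over the 9 libraries, in 3 every MSP library lay above every other with an adjusted p below 0.05 in both tests, and in 0 genes every MSP library lay below every other by edgeR (45 at unadjusted p below 0.05 in both tests, 0 by DESeq2). The protein-coding one is RAB7B, a small GTPase of endosomal traffic, at 6.79, 6.77 and 7.04 CPM after MSP, 4.53, 4.73 and 3.95 after HGF and 5.47, 4.67 and 4.51 after vehicle. RAB7B differed by -0.64 as HGF minus MSP and 0.49 as MSP minus vehicle. The others are the pseudogenes RPL17P18 and EEF1A1P12, whose reads can come from their expressed parent genes, and the HGF against MSP call of RPL17P18 was lost without MSP replicate 2 (adjusted p = 0.0740).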

How the data were processed

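RNA from BxPC-3 cells was sequenced as KAPA mRNA HyperPrep libraries on an Illumina HiSeq, per the labels. The deposited values are whole-number gene counts, 1 column per library. Per the submitters' processing notes the authors used STAR for alignment and featureCounts (Subread) for counting. Genome build, annotation release and strand setting: not given in the sources used here. Of 58395 identifiers, 41885 had a symbol and 58275 were found in GENCODE 29, and no per-library column was left out. Genes were kept by edgeR 4.0.16 filterByExpr (minimum count 10, minimum total 15), which left 16794, of which 15263 had a symbol. After TMM scaling, edgeR's quasi-likelihood test with robust estimation (R 4.3.3) was run with a mean for each group of the 18 libraries and 12 residual degrees of freedom. In each of 5 comparisons Benjamini-Hochberg adjustment covered all genes tested, and an adjusted p below 0.05 was called. The SE is the absolute log2 fold change divided by the square root of F. The median biological coefficient of variation was 6.37%. A count of 0 allows up to 3 counts, 0.0692 to 0.0982 CPM of library totals at 4 h, counting error only. On simulated data for HGF against MSP at 4 h (200 of 16794 genes changed), 54%, 72%, 88% and 100% were recovered at 1.25, 1.5, 2 and 4-fold, and 5.42% of calls were false. The measured libraries gave 11154 called genes for HGF against MSP at 4 h. How recovery and false calls stand with that many genes differing, or under another scaling, was not tested. Within the HGF and MSP groups at 4 h, replicates differed beyond sampling (chi-square over its degrees of freedom 3.03 to 5.42), so each counted as 1. The rule named 87 genes: the 12 largest differences in each direction among called genes with a mean of at least 1 CPM and no overlap between the groups, the called member largest in each direction of each list, the receptors and ligands, the 3 genes with MSP apart from both other groups, and the 6 largest changes between times in each direction. Other genes given as examples, F3 and HBP1 among them, were chosen after their values were seen. The members, the 33 gene lists, the motifs and the naming rule were chosen with earlier results of these data known, and 52 list members were not tested. One list and some genes, 1 of the 87 among them, are not reported here. Another tested gene overlaps 16 of the 87 on the opposite strand and 5 on the same strand. Alternatives were library totals, DESeq2 size factors, the DESeq2 1.42.0 Wald test, other filters, no robust estimation, a replicate block, only the groups compared, and leaving out each library.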

Additional observations from a re-analysis of the deposited data

Results flagged for a closer look

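For 79 of the 87 genes named by rule, the difference between the ligands at 4 h was not the same as that at 1 h, by edgeR's test of the change itself (adjusted p below 0.05). Over all genes tested 51.1% were called in that test. Some of the 87 genes were named for the largest changes between times. Most others were named for their difference at 4 h, which is itself part of the change tested. The number called among the named genes was therefore partly set by the naming. It cannot be weighed against the share over all genes and is given as a description only. Values follow for 78 of the 79 genes and are 4 h minus 1 h on the log2 scale. The HGF minus MSP value was higher at 4 h than at 1 h, on the log2 scale, by 1.94 for AKAP12, 4.90 for NAV3, 1.56 for CGB5, 2.94 for MIR100HG, 2.32 for PDCD1LG2, 3.98 for CLMP, 1.49 for FOSL1, 2.71 for RGS4, 2.39 for TMEM158 and 1.57 for HIC1. For the next genes the change was 1.39 for CD274, 2.02 for SERPINB2, 0.60 for CBL, 1.79 for TGFA, 0.95 for CCNG2, 0.53 for BCL2L1, 1.69 for ITGA5, 0.86 for PKP2, 1.16 for PDGFB and 1.66 for AEN. It was further 1.11 for CDK6, 0.28 for CDC20, 0.50 for ODC1, 1.15 for HMGCS1, 1.64 for HK2, 1.22 for SLC7A5, 2.18 for INHBA, 0.80 for HES2, 0.47 for RARA and 1.25 for SOX9. Among the last of these genes the change was 0.56 for ACTB, 0.31 for MET, 0.71 for MST1R, 3.46 for JCAD, 3.43 for GPAT3, 3.24 for CHST11 and 3.21 for ZBED2. Among these, the EGF-family ligand TGFA, the integrin ITGA5, the activin subunit INHBA and the checkpoint ligand CD274 are secreted or surface proteins. The HGF minus MSP value was lower at 4 h than at 1 h, with changes of -4.42 for BMF, -3.93 for VAV3, -4.04 for TP73, -3.70 for ZNF608, -3.28 for FBXO32, -3.99 for RARB, -3.91 for FZD2, -3.57 for TXNIP, -3.51 for TMEM37, -3.55 for LINC02984, -3.77 for FOXP2 and -3.31 for DIO2. For others the change was -1.44 for GAB1, -1.17 for ETV5, -0.22 for TIMP2, -1.49 for ITGB8, -0.83 for DST, -2.12 for CLDN1, -1.68 for OVOL2, -0.30 for IL18, -0.17 for TAPBP, -0.56 for SEMA3C, -2.18 for CDKN2C and -1.07 for KIF20A. It was moreover -0.69 for SREBF1, -0.94 for SLC1A4, -1.93 for IFIT2, -1.64 for TGFB3, -1.35 for DLL1, -0.27 for MUC1, -0.59 for COL3A1, -1.53 for VWF, -0.20 for MT-ATP8, -0.89 for EEF1A1P12 and -0.45 for RAB7B. The genes with the largest of these changes include the BH3-only gene BMF, the transcription factor TP73 and the Wnt receptor FZD2. The higher level after HGF was smaller at 4 h for EGR2 (-4.07), DUSP2 (-0.56) and SNAI2 (-0.30). ATF3 (-2.64), ELF3 (-3.13) and EPHB3 (-1.52) were called higher after HGF at 1 h and lower at 4 h. By library totals the change between times no longer passed the test for CGB5 (1.35, adjusted p = 0.0537), CDC20 (0.072, adjusted p = 0.287) and MET (0.10, adjusted p = 0.089).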

How the results depend on the processing

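Scaling by library totals changed the most. With it HGF against MSP at 4 h gave 3320 higher and 8975 lower genes, HGF against vehicle at 4 h 3553 higher, HGF against MSP at 1 h 3112 lower, and the change between times 2932 in the higher and 6459 in the lower direction. It ended the calls of COL1A1 (-0.019, with a turned sign but no call), MET (0.076) and CDC20 (0.056). For MSP against vehicle at 4 h, no filter on low counts gave 354 genes (252 higher, 102 lower), only the groups compared 402 (241 and 161), and DESeq2 310 (209 and 101). Leaving out single libraries gave 16 to 220 genes there (13 to 159 higher, 3 to 61 lower), and 10490 to 10658 for HGF against MSP at 4 h (5255 to 5310 higher, 5212 to 5370 lower). Of the tests of named genes under these alternatives, 1234 kept their direction and side of the threshold and 8 lost their call (MST1 in 4 of them). In 1, COL1A1 by library totals, the call was lost and the sign turned. The cause of these changes was not tested. Deviations of same-numbered HGF and MSP libraries at 4 h were hardly correlated (0.0132, -0.0358 and 0.0095), much like those of other pairs (-0.049 to 0.036). With 3 libraries in a group, and vehicle libraries not checked, this does not exclude that replicate numbers pair the samples. With a replicate block HGF against MSP gave 5520 higher and 5717 lower genes at 4 h and 1995 and 1163 at 1 h, and MSP against vehicle gave 162 and 66. Depth limits genes near the floor of 3 counts, such as RARB after HGF.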

Other observations

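Gene families picked by symbol after the values had been seen add other groups to the comparison of HGF with MSP at 4 h. The shares over all genes tested, to set beside each family, were 32.7% higher and 33.8% lower. Of 52 translation initiation factors 39 were higher and 4 lower (median 0.48; 29 and 14 by library totals), with EIF5A2 (1.84) and EIF3J, at a mean of 330.1 CPM after HGF and 115 after MSP (1.52), at the top and EIF4B lower (-0.37). Of 46 DEAD and DEAH box helicases 38 were higher and 4 lower (median 0.44; 25 and 10 by library totals). The nucleolar helicase DDX21 stood at a mean of 932 CPM after HGF and 239 after MSP (1.96). RNA polymerase subunits were higher in 23 of 31 and lower in 1, or 16 and 9 by library totals (POLR3G 2.13, POLR1G 1.78). Proteasome subunits were higher in 35 of 43 and lower in 4, or 20 and 9 by library totals. The 4 lower ones were PSMB9 (-0.50), PSMB8 (-0.21), PSMG2 (-0.17) and PSME1 (-0.15). PSMB9 and PSMB8 are among the interferon-inducible subunits. Cytosolic ribosomal proteins differed little, with 11 of 77 higher and 5 lower (median 0.030), but 2 and 73 by library totals. Mitochondrial ribosomal proteins were higher in 42 of 71 and lower in 9, or 21 and 27 by library totals.

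Of 8 Frizzled receptors, which bind Wnt ligands, 7 were lower and 1 higher, also by library totals (FZD5 -0.77, FZD1 -0.59, FZD8 1.68). Of 14 Wnt ligands 6 were lower, 2 higher and 6 not called (10 lower and 2 higher by library totals), against 33.8% lower over all genes tested. WNT10A stood at a mean of 38.7 CPM after HGF and 97.4 after MSP (-1.33), while WNT7A (1.36) and WNT7B (0.95) were the higher ones. Serpins were higher in 15 of 20 and lower in 2 (10 and 4 by library totals), with SERPINB9, an inhibitor of granzyme B, at 2.28 and SERPINB1 at 2.01. Of 16 aldehyde dehydrogenases 11 were lower and 3 higher, or 12 and 3 by library totals (ALDH1B1 1.57). Of 27 cytochrome P450 genes 12 (44.4%) were lower and 4 (14.8%) higher (16 and 3 by library totals). CYP1B1, which oxidises hydrocarbons and estrogens, differed by -2.11, and CYP26B1, which degrades retinoic acid, by 1.44. Zinc finger genes named ZNF were lower in 199 of 399 and higher in 97 (median -0.29; 272 and 51 by library totals).

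Gene types differed as well. Over all genes tested 32.7% were higher and 33.8% lower. Of 13053 protein-coding genes 5102 (39.1%) were higher and 4271 (32.7%) lower (median 0.017). Of 2528 long non-coding and antisense RNA genes 248 (9.81%) were higher and 1066 (42.2%) lower (median -0.57). Of 1089 pseudogenes 119 (10.9%) were higher and 299 (27.5%) lower (median -0.33). Both pseudogene shares lay below those over all genes, and 671 pseudogenes were not called. By library totals protein-coding genes turned to 3089 higher and 7010 lower (median -0.28), with 158 and 1394 for the non-coding and antisense RNA genes and 62 and 519 for the pseudogenes. Pseudogenes took 0.276% to 0.307% of counts after HGF, 0.375% to 0.395% after MSP and 0.350% to 0.360% after vehicle at 4 h. The 603 processed pseudogenes had a median of 0.43 in MSP against vehicle and 0.15 in HGF against vehicle at 4 h, comparisons that share the vehicle libraries, with 4 and 97 genes called higher. Their reads may come from the parent genes, and the cause was not tested.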
